A study of Mus musculus with 2 samples.

Results

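The 7 genes described here encode chains of class I molecules or proteins that load them with peptide. Classical class I molecules show peptides to CD8 T cells, whereas the heavy chain of H2-T23 is nonclassical. B2m, H2-K1, H2-D1, H2-T23, Tap1, Tap2 and Tapbp were found by symbol in the transcript quantification and joined by gene identifier to the gene quantification, 7 genes of the 55536 annotated. The tissue was labelled a layer of the hippocampus of male B6CASTF1/J mice aged 2 months, the first-generation cross of C57BL/6J and CAST/EiJ, with no treatment or edited allele named. Total RNA (300 ng per library, with ERCC spike-ins) gave 2 libraries, biological replicates 1 and 2, which form 1 group, so no groups were compared and no p-value was computed. The labels do not say that the replicates came from separate animals. Expected counts summed to 31422827 for replicate 1 and 31303010 for replicate 2.

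A class I molecule is a polymorphic heavy chain paired with the small invariant chain beta-2 microglobulin, which holds a peptide in a groove formed by its alpha 1 and alpha 2 domains. Peptides made by the proteasome enter the endoplasmic reticulum through the transporter of TAP1 and TAP2, and tapasin, the product of Tapbp, bridges that transporter to empty heavy chains. In brain, class I genes are best known from microglia and endothelium and rise with interferon, and H2-K1 and H2-D1 have also been studied in neurons for their part in synapse remodelling. The H2 region is among the most variable of the mouse genome, and these animals carry 1 haplotype of each parental strain, while the mm10 reference holds that of C57BL/6J. How many reads came from the CAST/EiJ alleles, or were lost for their differences, was not measured.

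The heavy chain genes resemble each other in sequence, which bears on their counts below. The first set of sequences shows where H2-K1 and H2-D1 can be told apart. It is the window of 100 coding bases with the most differences between the main coding transcripts of H2-K1 and H2-D1 that also aligns without a gap to H2-T23. It runs from exon 2, which encodes the alpha 1 domain, into exon 3, which encodes the alpha 2 domain. Sequences are from the GENCODE M21 transcripts on mm10, 5′ to 3′ on the coding strand. In the H2-K1 and H2-D1 lines capitals mark the bases at which those 2 genes differ, and in the H2-T23 line the bases that differ from H2-K1.
H2-K1-201: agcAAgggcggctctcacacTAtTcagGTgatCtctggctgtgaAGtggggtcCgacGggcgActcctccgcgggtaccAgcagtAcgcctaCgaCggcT
H2-D1-202: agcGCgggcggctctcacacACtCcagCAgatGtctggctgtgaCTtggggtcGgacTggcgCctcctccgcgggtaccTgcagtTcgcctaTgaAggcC
H2-T23-201: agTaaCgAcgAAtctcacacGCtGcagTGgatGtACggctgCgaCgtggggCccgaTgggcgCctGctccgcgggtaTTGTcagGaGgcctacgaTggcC
With the intron between those exons included, the windows span chr17:33999457-33999743 on the minus strand for H2-K1, chr17:35263639-35263928 on the plus strand for H2-D1 and chr17:36031824-36032162 on the minus strand for H2-T23. H2-K1 and H2-D1 differ at 18 of these 100 bases, and H2-K1 and H2-T23 at 27.

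The second set is the window with the fewest differences, inside exon 4, which encodes the alpha 3 domain, and it shows where the 3 genes are nearly alike. Capitals mark the base that differs, as above.
H2-K1-201: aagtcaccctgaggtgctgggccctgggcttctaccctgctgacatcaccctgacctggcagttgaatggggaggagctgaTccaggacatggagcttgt
H2-D1-202: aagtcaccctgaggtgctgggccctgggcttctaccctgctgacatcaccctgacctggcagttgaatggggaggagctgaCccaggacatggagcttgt
H2-T23-201: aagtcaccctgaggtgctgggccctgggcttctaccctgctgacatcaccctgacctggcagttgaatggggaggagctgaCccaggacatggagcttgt
These windows lie at chr17:33997416-33997515 on the minus strand, chr17:35265829-35265928 on the plus strand and chr17:36030953-36031052 on the minus strand. Here H2-K1 differs from H2-D1 at 1 base of 100, and from H2-T23 at 1 base. Over the aligned coding sequence, H2-K1-201 and H2-D1-202 were identical at 91.5% of 1077 bases, H2-K1-201 and H2-T23-201 at 83.4% of 1059 bases, and H2-D1-202 and H2-T23-201 at 81.1% of 1070 bases.

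Counted in words of 31 bases over all annotated transcripts of a gene, H2-D1 shared 26.7% of its words with other genes, H2-T23 24.5% and H2-K1 22.8%. Over the 12689 detected nuclear protein-coding genes matched to transcript sequences, the median share was 0.344%, and 7.42% of those genes shared 20% or more. The 3 genes that shared most with H2-K1 were H2-D1 with 358 words, H2-Q10 with 307 and H2-Q7 with 241. For H2-D1 they were H2-K1 with 358, H2-Q1 with 212 and H2-Q7 with 211, and for H2-T23 the pseudogene H2-T-ps with 368, H2-Q1 with 167 and H2-D1 with 153. Words of 100 bases were searched only among the members and the genes of chromosome 17. The shared part there was 0.957% for H2-K1, 3.59% for H2-D1 and 1.92% for H2-T23. Genes on other chromosomes that share 31-base words numbered 0 for H2-K1, 629 for H2-D1 and 581 for H2-T23. For H2-D1 and H2-T23 the shares at 31 and 100 bases are therefore not over the same genes. The members that are not heavy chains shared less. B2m shared none of its 830 words of 31 bases. Tap1 shared 0.825%, of which 44 words were with Tap2, its partner in the transporter, followed by Sapcd2 and Fgd4. Tap2 shared 1.34%, the same 44 words with Tap1 and then few with Gm36500 and Nek7. Tapbp shared 4.62%, led by Zbtb22 with 89 words, AC122861.4 with 72 and Polg2 with 41.

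All 7 genes were detected, meaning a TPM (a relative number of transcripts, corrected for transcript length) of at least 1 in both libraries, as were 57.7% of annotated protein-coding genes. Their levels in the gene quantification spread from Tap1 to B2m, and the median of the 7 mean levels was 7.30 TPM, beside 14.7 TPM over all detected protein-coding genes. In bulk tissue, fewer cells of a type and less RNA per cell cannot be told apart, so a low level may be that of a rare cell type. Levels below are in TPM of the gene quantification, as mean ± SD over the 2 libraries (n = 2), unless another source is named.

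B2m stood far above the other members. B2m (ENSMUSG00000060802.8, chromosome 2 from 122147686 to 122153083 on mm10) reached 39.9 TPM in replicate 1 and 42.5 in replicate 2, or 41.2 ± 1.82 TPM. It ranked 2424 among the 12697 detected nuclear protein-coding genes. Its partner chains were lower by several fold, and B2m exceeded the sum of H2-K1 and H2-D1 2.57 times in replicate 1 and 2.71 times in replicate 2. The second quantification, which was made from the reads rather than from an alignment, gave ratios of 2.62 and 2.53.

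The heavy chains H2-K1 and H2-D1, the 2 classical class I genes measured, had means whose order did not hold in both libraries. H2-K1 (ENSMUSG00000061232.16, chromosome 17 from 33996017 to 34000347, minus strand) had 9.16 TPM in replicate 1 and 7.48 in replicate 2, or 8.32 ± 1.19 TPM. H2-D1 (ENSMUSG00000073411.11, chromosome 17 from 35262730 to 35267499, plus strand) was at 6.38 and 8.21 TPM, or 7.30 ± 1.29 TPM. H2-K1 was thus the higher of the pair in replicate 1 and H2-D1 in replicate 2. In the second quantification the order switched in the same way, with H2-K1 at 12.8 and 10.7 TPM and H2-D1 at 10.4 and 14.7 TPM. By the authors' posterior mean TPM, however, H2-K1 was the higher of the pair in both libraries, at 10.3 and 9.76 TPM against 6.70 and 8.42 TPM for H2-D1. These neighbours in the order of levels did not differ beyond their spread in TPM between the libraries. H2-T23, which encodes Qa-1, the nonclassical heavy chain read by NKG2A on natural killer cells, was lower. It (ENSMUSG00000067212.8, chromosome 17 from 36029773 to 36032855, minus strand) was at 2.10 and 1.99 TPM, or 2.05 ± 0.0778 TPM.

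The loading machinery was led by tapasin. Tapbp (ENSMUSG00000024308.15, chromosome 17 from 33915899 to 33929292, plus strand) had 12.3 TPM in replicate 1 and 15.05 in replicate 2, or 13.7 ± 1.94 TPM, second to B2m in both libraries. Tap2 (ENSMUSG00000024339.12, chromosome 17 from 34203527 to 34216321, plus strand) had the same value in both libraries, 3.17 TPM. Tap1 (ENSMUSG00000037321.17, chromosome 17 from 34187553 to 34197225, plus strand) was the lowest member, at 1.36 and 1.59 TPM, or 1.48 ± 0.163 TPM. The subunits of the transporter pair within 1 complex, yet Tap2 was above Tap1 2.33 times in replicate 1 and 1.99 times in replicate 2. The second quantification gave 2.33 and 1.98 times. Apart from H2-K1 and H2-D1, neighbours in the order B2m, Tapbp, H2-K1, H2-D1, Tap2, H2-T23 and Tap1 did not overlap between libraries in the first quantification. The intervals deposited by the authors, however, overlapped in replicate 1 for Tapbp (11.3 to 16.3 TPM) and H2-K1 (8.09 to 12.5 TPM). In both libraries they overlapped for H2-T23 (1.67 to 2.74 and 1.57 to 2.60 TPM) and Tap1 (1.27 to 2.32 and 1.28 to 2.71 TPM). For H2-D1 they ran from 5.68 to 7.75 TPM in replicate 1, below that of H2-K1. In replicate 2 the interval of H2-D1, 7.16 to 9.79 TPM, overlapped that of H2-K1, 7.44 to 12.2 TPM.

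**Figure D1:**
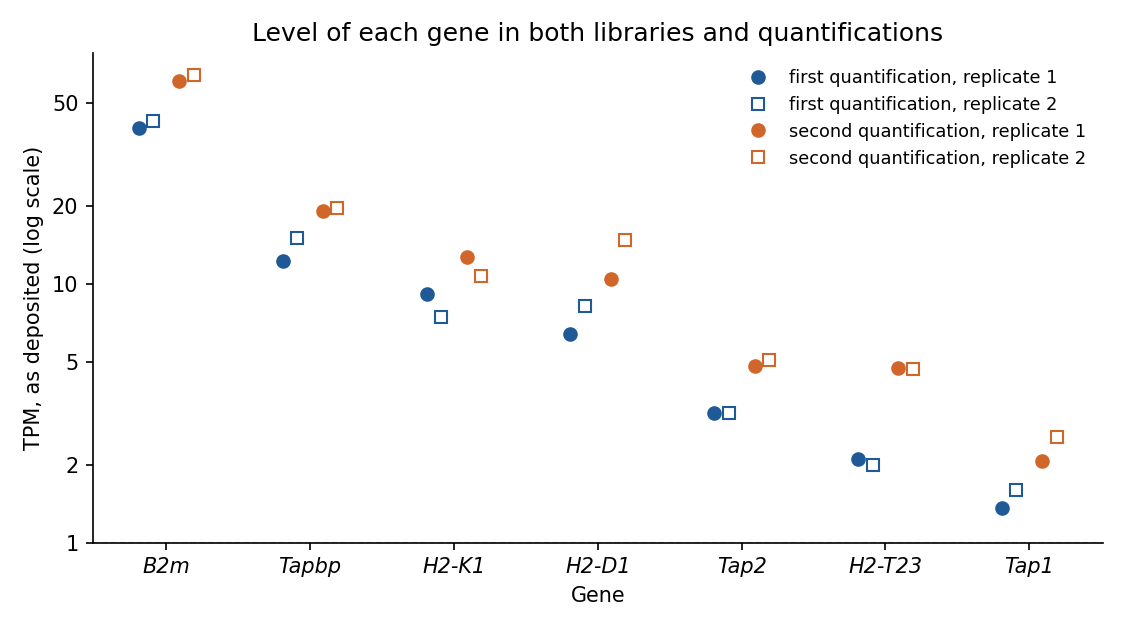
TPM as deposited (log axis) of each gene in replicate 1 (filled) and replicate 2 (open), from the first quantification (blue circles and squares) and the second (orange). B2m lies above the rest in every set of points, H2-K1 and H2-D1 change places between the libraries, and Tap1 is lowest at 1.36 to 2.57 TPM.

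Among the members, all of which had at least 50 expected counts in both libraries, 0 were 2-fold apart in TPM, as were 0.273% of the 13916 genes with that many counts. A second measure took the ratio of expected counts, scaled by TMM library sizes (which correct for composition), with an exact 95% Clopper-Pearson interval that covers counting error only. By it 2 members, H2-D1 and Tapbp, were higher in replicate 2 beyond counting error, beside 10.2% of all genes tested, and 0 were lower, beside 10.2%. The difference of Tapbp was no longer beyond counting error with median-of-ratios or total count scaling or in the second quantification, and neither gene's was with a 99% interval. The median log2 ratio over the members was 0.09 in TPM and 0.03 in scaled counts. Over all genes tested these medians were -0.04 and 0.003, with SDs of 0.20 and 0.16.

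H2-D1 had 267 expected counts in replicate 1 and 324 in replicate 2. The scaled count was 1.22-fold higher in replicate 2 (interval 1.04 to 1.44), and the TPM 1.29-fold. Of the 1370 genes with a similar summed count, 7.96% had a count ratio at least as far from equality. Tapbp had 592 and 659 expected counts, a scaled log2 ratio of 0.16 whose interval, 0.002 to 0.33, barely left equality. Of genes with similar counts, 14.8% lay as far. B2m had 683 and 747 expected counts, and its scaled log2 ratio of 0.14 had an interval of -0.01 to 0.29.

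Sums of cell type markers differed between the libraries in both directions. Choroid plexus markers summed to 15.5 TPM in replicate 1 and 28.8 TPM in replicate 2, of which Ttr, a secreted transport protein of that epithelium, made up 10.6 and 23.1 TPM. Of the 7 choroid plexus markers 2 were detected, and the other, Kl, was at 4.04 and 3.96 TPM. The undetected ones had too few counts for the ratio comparison. Clic6 had 23 and 48 counts, Otx2 4 and 15, Kcnj13 4 and 6, Folr1 1 and 4, and Aqp1 9 and 8. Meningeal markers summed to 50.03 and 58.9 TPM, with 6 of 7 detected, but Igf2 alone was at 18.6 and 27.2 TPM and the list's median log2 ratio was 0.018. Sums of microglial markers (12 of 12 detected) were 196 and 200 TPM, and of endothelial markers (10 of 10 detected) 116 and 117 TPM. Median log2 ratios of these 2 lists in scaled counts were 0.058 and 0.082. Astrocyte markers summed to 1591 and 1508 TPM, oligodendrocyte markers to 1050 and 945 TPM and neuronal markers to 3962 and 3768 TPM. These sums were lower in replicate 2, but the median log2 ratios in scaled counts were 0.026, -0.054 and -0.020. Beyond counting error, 2 of 8 astrocyte markers were higher in replicate 2 and 1 was lower. For oligodendrocyte markers these numbers were 1 and 3 of 7, and for neuronal markers 3 and 4 of 10. For microglial markers with at least 50 counts they were 2 and 1 of 11, and for endothelial markers 2 and 0 of 10. The background over all genes tested, not matched for count, is 10.2% each way. Large counts let small ratios leave equality. Slc1a2, with 136509 and 131375 counts, was called lower at a scaled log2 ratio of -0.046. Leukocyte markers had 0 of 12 detected. The highest, Ptprc, was at 0.95 and 1.18 TPM in the first quantification and at 1.79 and 1.66 TPM in the second. S100a9, Cd8a, Cd3d and Cd3e had 0 counts in both libraries of the first quantification, whereas the second gave Cd3d 21.1 and 15.3 counts and Cd8a 0.235 and 0.252 TPM. The part of these markers in the H2-D1 ratio was not tested. Neuronal markers were all detected, 10 of 10, which does not test the labelled layer.

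For H2-K1 and Tap1, TPM and count gave opposite directions, and the difference between them lies in the effective length. A gene's TPM is its count divided by the effective length averaged over its transcripts, then scaled, so a shift of reads from long to short transcripts raises TPM without any more reads. H2-K1 had 179 and 182 expected counts, a scaled log2 ratio of 0.03 with an interval of -0.27 to 0.34. Its effective length went from 871 bases in replicate 1 to 1055 in replicate 2, a difference of 21.1%, which contributed -0.28 to a log2 TPM ratio of -0.29. Tap1 had 88.3 and 80.0 expected counts, a scaled log2 ratio of -0.13 (interval -0.58 to 0.33). Its effective length was 2891 bases in replicate 1 and 2173 in replicate 2, which contributed 0.41 to a log2 TPM ratio of 0.23. The remaining term, a shared scale, was about -0.04 for both genes.

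For Tapbp the lengths, 2140 and 1895 bases, contributed 0.18 of a log2 TPM ratio of 0.29. For B2m, which has a single annotated transcript, the effective length was 761 bases in both libraries and the term was 0. Effective lengths 10% or more apart were found in 3 of the 7 members, beside 15.4% of all genes tested. Opposite signs of the TPM and count ratios were found in 2 of the 7, beside 23.2%. The intervals deposited by the authors for TPM overlapped between the libraries for all 7 members, as they did for 94.1% of all genes tested, and for H2-K1 they ran from 8.09 to 12.5 TPM in replicate 1 and from 7.44 to 12.2 TPM in replicate 2.

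**Figure D2:**
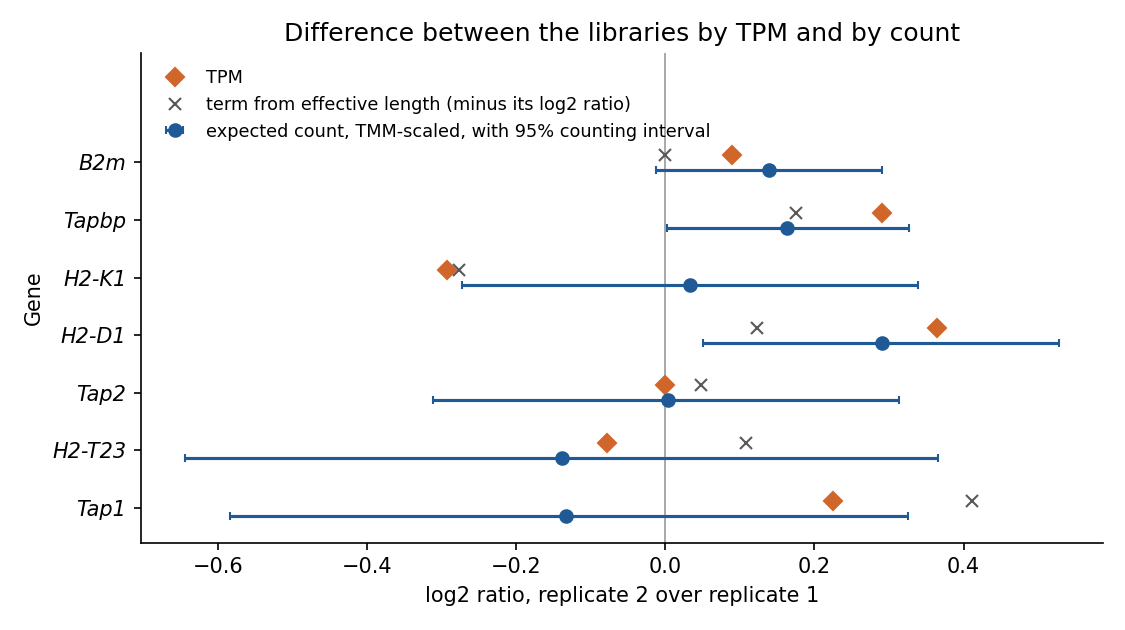
log2 ratio of replicate 2 over replicate 1 for each gene, by TPM (diamonds) and by TMM-scaled expected count (circles, bars are the exact 95% counting interval), with the term from effective length (crosses). The TPM ratios of H2-K1, at -0.29, and Tap1, at 0.23, fall on the other side of 0 from their count ratios and on the side of their length terms.

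The transcripts behind these lengths differed between libraries and between quantifications. The members have 46 annotated transcripts, of which 19 were above 0 in both libraries of the first quantification, 15 were above 0 in 1 library only, and 14 were above 0 in both libraries of both quantifications. The most abundant transcript was the same in the 2 quantifications for 5 of the 7 genes and differed for H2-K1 and Tapbp.

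H2-K1 was the most divided, with 16 transcripts, 9 above 0 in replicate 1, 7 in replicate 2 and 4 in both. The first quantification gave its highest TPM to H2-K1-215, a short transcript annotated as retained intron, at 3.50 and 2.57 TPM from only 28.2 and 21.3 counts. The second quantification gave H2-K1-215 0 in both libraries and placed the coding H2-K1-201 first, at 3.77 and 5.38 TPM. Transcripts annotated as retained intron held 51.2% and 36.0% of H2-K1 TPM in the first quantification, and 16.3% and 6.87% in the second.

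On coding transcripts alone, H2-D1 was above H2-K1 in both libraries of the first quantification, and by a margin that rests on few reads in the second. H2-K1 was at 4.34 and 4.55 TPM and H2-D1 at 6.00 and 7.19 TPM in the first quantification, a ratio of 1.38 in replicate 1 and 1.58 in replicate 2. In the second the values were 9.89 and 9.96 TPM for H2-K1 and 10.4 and 11.9 TPM for H2-D1, ratios of 1.05 and 1.20. In replicate 1 of the second, 1.19 TPM of H2-D1 came from 2 counts on the short H2-D1-203, and H2-D1-202 alone, at 9.23 TPM, was below H2-K1. H2-D1 came mostly from the coding H2-D1-202, with 90.3% and 80.3% of its TPM. H2-T23 came mostly from the coding H2-T23-201, with 83.9% and 92.5%.

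Tap2 was assigned mainly to a transcript that is not annotated as coding. Tap2-202, a retained-intron transcript, held 149 and 158 of about 172 expected counts in each library, or 84.5% and 87.7% of Tap2 TPM. The coding Tap2-201 had 22.96 and 12.5 counts, or 0.31 and 0.16 TPM. In the second quantification Tap2-202 still led, with 65.5% and 61.2%, but Tap2-201 was at 1.67 and 1.85 TPM. On coding transcripts, Tap2 was at 0.49 and 0.39 TPM in the first quantification and below Tap1 at 1.02 and 1.33 TPM. In the second, coding Tap2 at 1.67 and 1.97 TPM was above coding Tap1 at 1.42 and 1.49 TPM, so the order of the transporter subunits at the coding level rests on the quantification.

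The Tap1 transcripts were thinly covered. The coding Tap1-206 had 50.6 and 39.6 counts. Tap1-207, a short coding transcript, had 0 counts in replicate 1 and 4.70 in replicate 2, where these few reads made up 26.2% of Tap1 TPM. Tap1-204, a long retained-intron transcript, had 15.8 counts in replicate 1 and 0 in replicate 2. For Tapbp the first quantification led with Tapbp-206, at 6.01 and 6.98 TPM, and the second with Tapbp-201, at 12.4 and 12.1 TPM. The short Tapbp-208 had 2.05 and 3.72 TPM in the first quantification and 0 in both libraries of the second. In the second quantification Tapbp as a whole was at 19.1 and 19.6 TPM, a log2 ratio of 0.04 where the first gave 0.29.

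**Figure D3:**
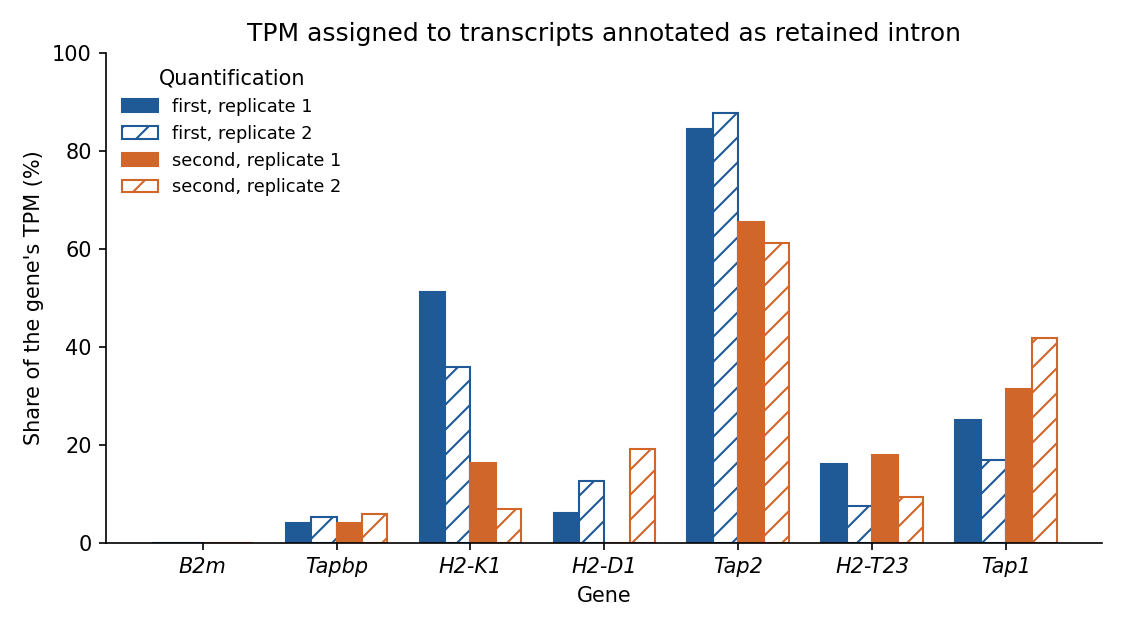
Share of each gene's TPM (percent, bars) on transcripts annotated as retained intron, in replicate 1 (solid) and replicate 2 (hatched) of the first (blue) and second (orange) quantification. Tap2 is above 60% in all 4, H2-K1 is at 51.2% and 36.0% in the first and 16.3% and 6.87% in the second, and B2m has no such transcript.

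Gene totals agreed better than transcripts. After both quantifications were rescaled to the nuclear protein-coding genes, 7 of 7 members lay within 1.5-fold of each other in both libraries, as did 91.4% of detected nuclear protein-coding genes. H2-T23 was the only member higher in the second quantification on that scale, at 1.28 and 1.31 times the first, and the other 6 ranged from 0.722 to 0.995 times. By count, the second quantification gave H2-T23 101 and 96.9 against 71.9 and 64.9 in the first, or 1.40 and 1.49 times. The median over detected nuclear protein-coding genes was 1.07 in both libraries. B2m went the other way, with 515 and 558 counts against 683 and 747, or 0.754 and 0.747 times. For the 80 single-transcript genes with an effective length of 600 to 900 bases, like that of B2m, the median was 0.857 and 0.864 times.

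As a sum, the other heavy chain genes took more counts in the second quantification. Of 24 protein-coding class I heavy chain genes on chromosome 17, 4 were detected: H2-K1, H2-D1, H2-T23 and H2-T22. The 21 that are not members summed to 288 and 315 expected counts in the first quantification and to 468 and 508 in the second, 1.62 and 1.61 times as many. H2-K1, H2-D1 and H2-T23 held 64.3% and 64.5% of all heavy chain counts in the first and 54.5% and 55.3% in the second. H2-Q7, which shares 241 words with H2-K1, had 12.7 and 13.3 counts in the first and 64.4 and 62.3 in the second. H2-Q10, which shares 307, had 3.75 and 2.76 against 23.7 and 29.2. Whether the gain follows the shared words was not tested. H2-Q4, not among the 3 genes sharing most with any member, had 28.7 and 36.8 against 85.3 and 111. The number of words H2-Q4 shares was not kept. H2-Q1, which shares 212 words with H2-D1, had 7.97 and 0 against 7.70 and 0, too few counts to show a gain or its absence. H2-D1 itself changed little, at 1.00 and 1.03 times, and H2-K1 was at 1.07 and 1.09 times. Which assignment of these reads is right was not tested.

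**Figure D4:**
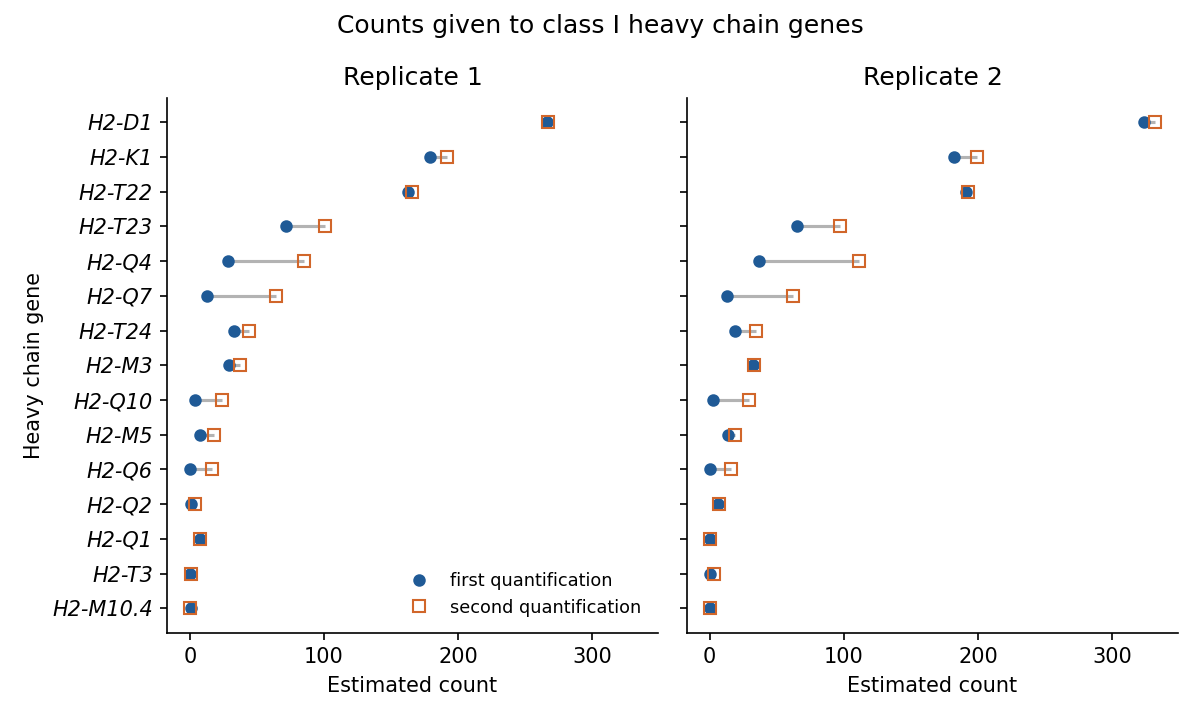
Estimated counts (linear axis) of the 15 class I heavy chain genes above 0 anywhere, in the first (filled circles) and second (open squares) quantification, with 1 panel per library. H2-D1 has the most counts in both panels and quantifications, H2-K1 and H2-T22 lie next, and H2-Q4, H2-Q7, H2-Q10, H2-Q6 and H2-T23 move to higher counts in the second quantification.

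Most members lay below the general machinery they work with. Chaperones and other cofactors of loading were all detected, 9 of 9, with a median of 45.6 TPM. They were led by the lectin chaperone Calr at 195 ± 13.7 TPM, the membrane chaperone Canx at 166 ± 4.14 TPM and Hspa5 at 122 ± 8.46 TPM, genes that serve all secretory proteins. The lowest, Erap1 at 4.35 ± 0.608 TPM and Tapbpl at 1.44 ± 0.403 TPM, lay in the range of the members. In this list 4 of 9 were lower in replicate 2 beyond counting error and 0 were higher. The background over all genes tested, not matched for count, is 10.2% each way. The scaled log2 ratios were -0.07 for Calr, -0.09 for Hspa5, -0.12 for Uggt1 and -0.53 for Tapbpl. With 9057 and 8569 counts, Calr has a narrow counting interval, so a small ratio leaves equality. The 3 catalytic subunits of the constitutive proteasome were at 77.7 to 89.4 TPM: Psmb5 at 89.4 ± 0.933, Psmb7 at 80.0 ± 0.863 and Psmb6 at 77.7 ± 1.31 TPM. Of 5 genes of the immunoproteasome, whose subunits favour class I peptides, and its activator PA28, 4 were detected. Psmb10 was at 27.1 ± 2.85 TPM, Psme1 at 23.8 ± 1.63 TPM and Psme2 at 22.2 ± 3.47 TPM. The other inducible catalytic subunits were far lower, Psmb8 at 1.47 ± 0.552 TPM and Psmb9 at 1.00 ± 0.226 TPM.

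Regulators of class I genes were detected in 21 of 22 cases, with a median of 9.17 TPM, led by the kinase Jak1 at 51.1 ± 1.67 TPM, Nfyb at 29.0 ± 2.04 TPM and Irf2 at 20.8 ± 1.94 TPM. Of the 21 with at least 50 counts, 1 was higher in replicate 2 beyond counting error and 5 were lower. The background over all genes tested, not matched for count, is 10.2% each way. In TPM 0 of the 21 were 2-fold apart, beside 0.273% of all genes tested. The remaining regulator, Nlrc5, the class I transactivator, had 19 and 7 counts, too few for that comparison, and its levels, 0.57 and 0.15 TPM, were over 2-fold apart. Interferon response genes were detected in 4 of 12 cases, with a median of 0.623 TPM, led by Ifi27 at 38.9 ± 0.933 TPM, with Bst2 at 1.93 ± 0.170 TPM and Irgm1 at 1.69 ± 0.120 TPM.

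Among 20 other class I and class I-like genes, 4 were detected. Fcgrt, the heavy chain of the neonatal Fc receptor and a partner of beta-2 microglobulin, was at 7.71 ± 0.672 TPM. H2-T22, a nonclassical heavy chain, was at 4.13 ± 0.615 TPM. Hfe, which takes part in iron regulation, was at 1.68 ± 0.297 TPM, and Mr1, which presents vitamin metabolites, at 1.32 ± 0.00707 TPM. Of 10 genes listed for the class II pathway, 2 were detected, the lysosomal protease Ctss at 22.8 ± 0.580 TPM and H2-DMa at 11.9 ± 1.81 TPM. Cd74 was next at 1.14 ± 0.233 TPM. The class II chain genes H2-Ab1, H2-Eb1 and H2-Aa were not detected, at 0.56 ± 0.184, 0.445 ± 0.0354 and 0.43 ± 0.226 TPM. Genes listed as receptors of class I molecules had 0 of 8 detected. The highest by mean TPM were Klra2 with 3 and 8 counts, Klrd1 with 2 and 0, and Pirb with 2.72 and 2.07. The second quantification gave more counts to Klra2, 12.9 and 17.9, and to Pirb, 10.203 and 13.2. It did not give more to Klrd1, at 1 and 0. Cd8a and Cd8b1 had counts only in the second quantification.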

How the data were processed

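RNA was measured in 2 libraries of 1 group. Per the file headers, the authors deposited a gene and a transcript quantification in the RSEM layout (called first here) and a transcript quantification in the kallisto layout (second). Per the labels the build is mm10; the programs' versions are not stated in the sources used here. The expected count and TPM are as deposited: per the file headers, the first estimates how many reads belong to a gene and can be fractional, and the second is scaled over every entry. Annotation was GENCODE M21. The members and gene lists were chosen with earlier results of these data known.

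Detection required 1 TPM or more in each library. Ratios used genes with at least 50 expected counts in both, with library sizes from TMM (edgeR 4.0.16) and counts rounded for the interval (scipy 1.17.1). Coding sequences were aligned with biopython 1.88. Named genes were all members, the 3 highest of each pathway list, detected class I-like genes, genes 2-fold apart and the 3 sharing most words with a member; other genes were named after their values were seen. Alternatives covered thresholds, scaling (DESeq2 1.42.0 included), pseudocount, filters, the posterior mean TPM, the other quantification and each library alone.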

Additional observations from a re-analysis of the deposited data

How the results depend on the processing

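All 7 members were detected at 1 TPM and 5 at 2 TPM. The median of the members' mean TPM, 7.30, was 11.7 in the second quantification and 17.5 when TPM was rescaled to nuclear protein-coding genes, and ranged from 6.38 without replicate 2 to 7.48 without replicate 1. The count of members beyond counting error, 2, was 1 with median-of-ratios size factors, 1 in the second quantification, 1 with total count scaling and 0 with a 99% interval; where 1 was left it was H2-D1. The count of members within 1.5-fold between quantifications, 7, was 4 under the tighter limit tried and 1 with TPM as deposited. The log2 ratio of H2-K1, -0.29 in TPM, was 0.0326 in counts with TMM factors and 0.0232 with median-of-ratios size factors. That of Tap1, 0.23 in TPM, was -0.13 and -0.14. No paired analysis was possible because there is 1 group. The counts of H2-T23 leave a ratio between libraries of 0.640 to 1.29 within counting error. No allele of either parental strain was separated.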
